A study of Rattus norvegicus with 5 samples.

Results

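The nuclei described here were GABA neuron nuclei of the rat ventral tegmental area (VTA) with at least 1 unique molecular identifier (UMI) of *Gata2*, *Gata3* or *Sox14*. They numbered 452 of the 22084 nuclei that passed quality control, with 17, 188, 79, 72 and 96 in rats 1 to 5. Single-nucleus RNA-seq (10x 3' chemistry) had been run on VTA punches from 5 adult male Sprague-Dawley rats, which the sample labels give as saline-treated brain and the study as drug-naïve. Both sides of the VTA of a rat went into 1 library, and all rats formed 1 group. The comparisons below were therefore between kinds of nuclei within the same rats, with the rat as the replicate.

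The members were chosen by measured counts. A nucleus had at least 1000 UMIs, more than 200 and fewer than 5000 genes and under 5% mitochondrial UMIs, which left 22084. At least 2 of *Gad1*, *Gad2* and *Slc32a1* were detected in 3407 of these. At most 1 *Slc17a6* UMI left 3292, *Mog* under 10 per 10000 UMIs left 2894, and a sum of *Th*, *Slc6a3*, *Slc18a2* and *Ddc* under 8 per 10000 left 2135. Fewer than 2 of *Pax7*, *Meis2*, *Corin* and *Nox4* left the 1842 nuclei called the GABA gate below, of which 452 had a UMI of the 3 factors and 1390 had none. These 16 genes and their levels define the groups, so they are described and not tested.

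GATA2, GATA3 and their partner TAL1 are zinc-finger and basic helix-loop-helix transcription factors known to set GABA neuron identity in the embryonic midbrain and anterior hindbrain. SOX14 is a repressor of the SOX family found in subsets of the GABA neurons of that lineage. GABA neurons of the VTA inhibit local dopamine neurons and also send long axons, and the receptor for glucagon-like peptide 1 (*Glp1r*), the gene the study asked about, has been placed in part of them.

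Libraries differed in depth, between 10193355 and 88576210 UMIs in all barcodes, and rats 1 and 3 stood apart. In rat 1, 3121 of 5218 barcodes with at least 1000 UMIs were removed for mitochondrial UMIs, and the factor-negative nuclei of the gate had a median of 1991 UMIs against 8256 in its 17 members. In rat 3 the members had a median of 2467 UMIs against 8256 to 10578 elsewhere, and free RNA, taken from barcodes under 100 UMIs, held 0.972 UMIs of *Gata3* and 0.704 of *Gata2* per 10000 against at most 0.160 and 0.0925 in the other rats. The libraries shared 50 of 22034 barcodes, 2 members had a barcode that also passed quality control in another library, and no barcode was a member in more than 1 library. Counts are given with and without both of these rats, an alternative chosen after seeing the data.

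*Gata3* was the factor found most often. A *Gata3* UMI was present in 305 members (67.5%), a *Sox14* UMI in 163 (36.1%) and a *Gata2* UMI in 110 (24.3%). *Gata3* alone was detected in 198 members, *Sox14* alone in 90 and *Gata2* alone in 45. *Gata3* came with *Sox14* in 54 members and with *Gata2* in 46, *Gata2* with *Sox14* in 12, and 7 members had all 3. Many of these calls were single molecules, since 227 members (50.2%) held 1 factor UMI in all, 118 held 2, 50 held 3 and 57 held 4 or more, up to 10. Members with only 1 kind of factor can therefore have missed another, and the 54 members with *Gata3* and *Sox14* were deeper (median 11074 UMIs) than those with *Gata3* alone (7493).

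**Figure D1:**
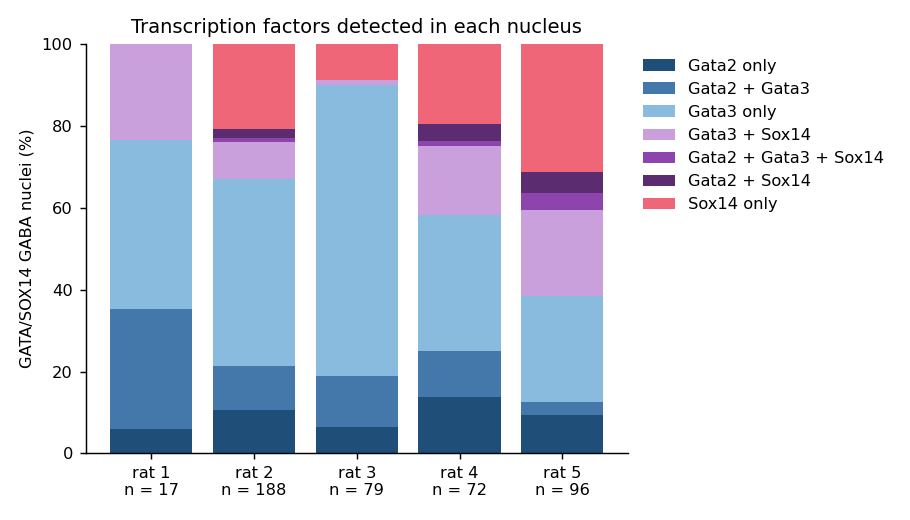
Share of the GATA/SOX14 GABA nuclei of each rat (y axis, percent) in which each combination of the 3 factors had a UMI; the number of nuclei is under each bar. *Sox14* alone ran from 0 of 17 nuclei in rat 1 to 30 of 96 in rat 5, and *Gata3* alone was the most common class in rats 1 to 4.

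The mix of factors varied between rats. A *Sox14* UMI was found in 23.5, 33, 10.1, 41.7 and 61.5% of the members of rats 1 to 5, and a *Gata3* UMI in 94.1, 66.5, 84.8, 62.5 and 54.2%. Rat 3, whose free RNA was rich in *Gata3*, had the lowest share with *Sox14*, and rat 5 had the highest. Per 10000 UMIs the members of rats 1 to 5 held 1.81, 1.28, 5.33, 1.05 and 0.882 of *Gata3*, against 0.0891, 0.133, 0.972, 0.0543 and 0.160 in the free RNA of the same libraries. They held 0.508, 0.384, 1.07, 0.4 and 0.294 of *Gata2* and 0.508, 0.517, 0.369, 0.560 and 0.939 of *Sox14*. *Gata3* and *Gata2* were highest in rat 3 and *Sox14* in rat 5. Since the rule asked for a UMI of these genes, it raised these levels itself, and nothing is read from their distance to free RNA. In nuclei with *Mog*, a myelin gene of oligodendrocytes, at 10 or more per 10000, a *Gata3* UMI was found in 0.714%, a *Gata2* UMI in 0.597% and a *Sox14* UMI in 0.375% of 8538 nuclei at a median of 2932 UMIs.

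Of the GABA gate, 25.4% ± 9.0 (SD, n = 5) had a factor UMI, with 13.1, 21.7, 32, 36 and 24.2% in rats 1 to 5 and 24.5% of all 1842 nuclei (95% exact binomial interval 22.6 to 26.6%, counting error only). Rat 1 was lowest and rat 4 highest. The share depended on depth and on the number of UMIs asked for, falling to 8.21% when each nucleus was thinned to 1000 UMIs and to 13.2% when 2 UMIs were required. After thinning it was 3.85, 4.72, 17.4, 8.5 and 6.55% in rats 1 to 5, highest in rat 3, the shallowest library. Rat 3 was also highest, at 43.9%, among nuclei with at least 2000 UMIs. Members had a median of 8170.5 UMIs against 5371 in the factor-negative nuclei of the gate. Median mitochondrial UMIs were 0.338% in members and 0.588% in those nuclei. They were 0.542% in nuclei removed by the *Pax7*-group limit and 1.06% in all nuclei passing the *Gad* step that were not members. Just outside the limits, 22 nuclei missed membership with dopaminergic genes of 8 to under 10 per 10000, 13 with 2 genes of the *Pax7* group and 8 with *Mog* of 10 to under 12, whereas 25 members had dopaminergic genes of 6 to under 8 and 5 had *Mog* of 8 to under 10. The *Gad* step had the largest edge, as 178 nuclei with 1 of its 3 genes met the rest and 276 members had 2. Of 1282 nuclei past quality control with a factor UMI, 566 (44.1%) passed the *Gad* step.

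The enzymes of GABA synthesis and the vesicular GABA transporter, used by the rule, were present at levels that differed among rats. *Gad1* was at 4.57, 3.35, 3.77, 3.13 and 3.85 UMIs per 10000 in rats 1 to 5 and was detected in 90.9% of members. *Gad2* was at 8.35, 5.42, 3.86, 5.53 and 5.06 and was detected in 93.6%. *Slc32a1* was at 3.05, 1.15, 3.73, 0.4 and 0.701, highest in rats 1 and 3, and free RNA of rat 3 held 7.46 of it per 10000 against 1.03 to 1.93 elsewhere. Markers outside the rule were checked next. The summed level of 6 neuron markers was 27.1 to 47.4 per 10000 over the rats against 4.33 to 11.2 in nuclei with *Mog* at 10 or more. Of 11 transcription factors of forebrain inhibitory neurons, 9 had no UMI in any member, *Dlx1*, *Dlx2* and *Lhx6* among them. The number without a UMI was 7 in factor-negative nuclei of the gate and 7 in nuclei with *Mog* at 10 or more. It was 10 in nuclei removed by the *Pax7*-group limit, so the list does not set members apart. The 2 vesicular glutamate transporters outside the rule together reached at most 0.340 per 10000, against at most 0.136 in nuclei with *Mog* at 10 or more. Their mean over rats was 0.129 in members and 0.0647 in factor-negative nuclei of the gate, and members were lower in 1 of 5 rats.

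The members were first set against the rest of the nuclei with at least 2 of *Gad1*, *Gad2* and *Slc32a1*. Against the 2955 other nuclei passing that step, which include dopaminergic, glial and *Pax7*-group nuclei, 357 of 10352 genes tested were higher in members (3.45%) and 672 lower (6.49%), 9.94% in all, at an adjusted p under 0.05 (edgeR quasi-likelihood test on UMI counts summed per rat, rat as block, Benjamini-Hochberg). *Tal1* was higher (log2 fold change 2.03, SE 0.22, adjusted p = 0.00017), as was *Egflam* (1.95, SE 0.17). *Ebf2* (-3.25, SE 0.28; -3.84 without rat 3), *Lmx1a* (-2.28, SE 0.25), a transcription factor of dopamine neurons, and *Chrna5* (-2.17, SE 0.34; -3.55 without rat 2), a nicotinic receptor subunit, were lower. The 8 oligodendrocyte markers and 4 of 6 astrocyte markers were lower. So were 3 of 4 dopaminergic markers tested, 1 of 3 microglia markers and 1 of 4 markers of oligodendrocyte precursors. The limits on *Mog*, *Slc17a6*, the dopaminergic genes and the *Pax7* group had been set on members only. The part of these cell kinds and limits in the other differences was not tested. Without rat 2 the counts were 61 higher and 209 lower, without rat 5 they were 132 and 373, without rat 4 they were 143 and 507, and without rats 1 and 3 together 442 and 945.

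The factor-negative nuclei of the same GABA gate gave a closer comparison. The limits on *Mog*, *Slc17a6*, the dopaminergic genes and the *Pax7* group applied to both sides. The limits on *Slc17a6* and the *Pax7* group count UMIs or detected genes, so they bind less in shallow nuclei. Factor-negative nuclei were the shallower (median 5371 against 8170.5 UMIs). The *Pax7*-group limit kept 200 of 258 nuclei in rat 4 and 247 of 256 in rat 3. Its part in the differences was not tested. In this comparison, 95 of 9240 genes tested were higher in members (1.03%) and 211 lower (2.28%) by the same edgeR test, 3.31% in all. *Tal1*, the matrix gene *Egflam* and the cation channel gene *Trpc4* were among the higher genes, and the transcription factors *Pax3*, *Ebf2* and *Sox6* were among the lower. The counts were smaller without rats 2, 4 or 5, with 36 higher and 85 lower without rat 2, 38 and 98 without rat 5, and 63 and 110 without rat 4. They were larger, at 138 and 293, without rats 1 and 3 together. With factor-negative nuclei matched to members on UMI total, 49 were higher and 95 lower, and 140 genes were called both ways, 45.8% of the 306 and 97.2% of the 144.

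*Tal1*, the partner of the GATA factors, was detected in 26.1% of members, 7.27% of factor-negative nuclei of the gate and 0.773% of nuclei with *Mog* at 10 or more. Its level in rats 1 to 5 was 0.290, 0.460, 0.123, 0.4 and 0.622 UMIs per 10000 in members and 0.0964, 0.158, 0, 0.233 and 0.190 in the factor-negative nuclei. It was higher in members in each rat, although rat 3's members lay below the factor-negative nuclei of rats 2, 4 and 5 and close to the 0.107 of that rat's free RNA. The log2 fold change was 1.48 (SE 0.22, edgeR adjusted p = 0.0019). After thinning to 1000 UMIs a *Tal1* UMI was found in 3.54% of members and 1.58% of factor-negative nuclei. Other partners and cofactors were mixed. *Ldb2*, a LIM-domain binding cofactor, was higher (0.73, SE 0.12), while *Zfpm2*, a GATA-binding cofactor, had a log2 difference of -0.13 (adjusted p = 0.77), *Lmo4* of 0.37 (adjusted p = 0.17) and *Sox2* of 0.64 (adjusted p = 0.17). Of the list of 33 genes of the GATA lineage, 30 were in the files and 11 passed the filter on low counts. Of these, *Tal1* and *Ldb2* were higher and *Ebf2* was lower, beside 1.03% higher and 2.28% lower of all genes tested. The median log2 difference of the list was 0.05 against -0.01 over all genes tested.

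**Figure D2:**
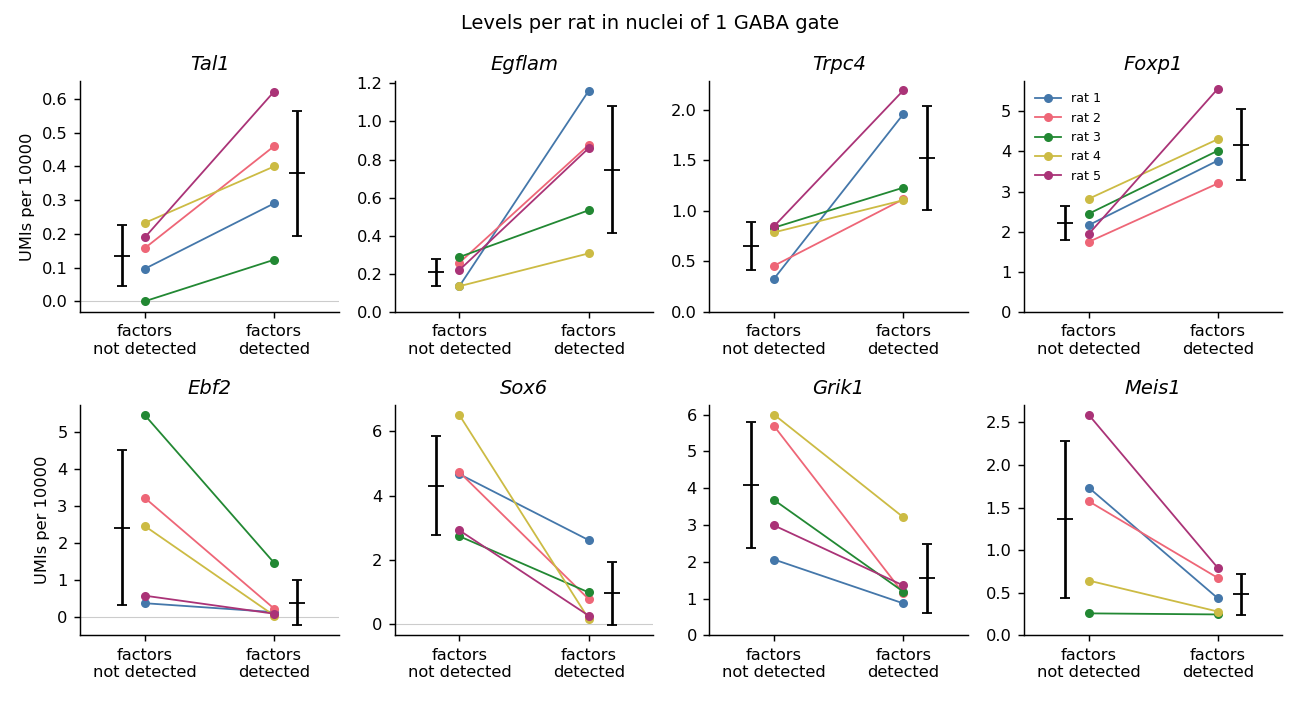
Level of 8 genes (y axis, UMIs per 10000) in nuclei of the GABA gate without and with a UMI of the 3 factors, 1 line per rat; black marks are the mean of the 5 rats ± SD. *Tal1*, *Egflam*, *Trpc4* and *Foxp1* were higher with the factors in each rat, and *Ebf2*, *Sox6*, *Grik1* and *Meis1* lower, with *Meis1* nearly level in rat 3.

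Of the genes with the largest rise, *Egflam*, *Col8a1* and *Tll1* act outside the cell. *Egflam*, which encodes the matrix protein pikachurin, was at 1.16, 0.876, 0.533, 0.307 and 0.860 UMIs per 10000 in the members of rats 1 to 5 and at 0.135, 0.258, 0.288, 0.134 and 0.220 in factor-negative nuclei. The groups did not overlap, and the log2 fold change was 1.80 (SE 0.21, edgeR adjusted p = 0.00024). *Col8a1*, a collagen chain, rose by 1.51 (SE 0.20), and *Tll1*, a metalloprotease that processes collagens, by 1.48 (SE 0.23). *Trpc4*, a receptor-operated cation channel, was at 1.96, 1.12, 1.23, 1.11 and 2.19 in members against 0.328, 0.456, 0.834, 0.787 and 0.848, without overlap, and rose by 1.19 (SE 0.18). *Sorcs1*, a sorting receptor of neurons, was at 12.6, 14.6, 7.10, 18.1 and 25.2 against 3.91, 6.36, 5.78, 7.34 and 4.86, overlapping only in that rat 3's members lay below the factor-negative nuclei of rat 4, and rose by 1.41 (SE 0.21). *Sorcs1* was also detected in 83.5% of the nuclei with *Mog* at 10 or more. The others with the largest rise were *Ccdc180* (1.54), *Fam184b* (1.43), *Pdlim3* (1.39), the myosins *Myo5b* (1.33) and *Myo3b* (1.30), and *Klhl29* (1.25). A rise in all 5 rats was a condition for naming these genes. *Ccdc180* had an adjusted p of 0.0845 without rat 2, *Pdlim3* of 0.119 without rat 5 and *Myo3b* of 0.0671 with matched UMI totals.

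The genes with the largest fall were led by transcription factors. *Pax3*, a paired-box factor of the dorsal neural tube, was at 0, 0.00630, 0.205, 0 and 0 UMIs per 10000 in the members of rats 1 to 5 against 0.482, 1.34, 1.06, 0.143 and 0.160, which was 6 UMIs against 672. Rat 3's members lay above the factor-negative nuclei of rats 4 and 5. The log2 difference of *Pax3* was -5.34 (SE 0.49) and its size depended on single libraries, at -3.49 without rat 2 and -7.55 without rat 3. *Ebf2* was at 0.145, 0.239, 1.48, 0.0533 and 0.102 UMIs per 10000 in the members of rats 1 to 5 against 0.386, 3.23, 5.46, 2.47 and 0.589, and fell by 3.22 (SE 0.30, edgeR adjusted p = 3.2e-05). The members of rat 3 stood above the factor-negative nuclei of rats 1 and 5, so the groups overlapped across rats but not within any. *Sox6* was at 2.61, 0.775, 0.984, 0.160 and 0.260 against 4.67, 4.72, 2.73, 6.5 and 2.91, without overlap, and fell by 2.75 (SE 0.36). *Pde3a*, a cyclic nucleotide phosphodiesterase, was at 0.218, 1.25, 0.410, 0.653 and 0.6 against 1.27, 5.01, 2.01, 3.84 and 1.42, also without overlap, and fell by 1.99 (SE 0.17). Also lower were the orphan receptor *Gpr149* (-2.4), the relaxin receptor *Rxfp1* (-2.12), the secreted peptide gene *Tafa4* (-2.24) and the growth factor *Pdgfd* (-1.84). The cystine transporter *Slc7a11* (-2.57), *Foxo1* (-2.01), *Ccnjl* (-1.83) and *Dock8* (-2.12) completed the 12. A fall in all 5 rats was a condition for being among them. *Dock8*, with 12 UMIs in members, had an adjusted p of 0.0553 without rat 1 and 0.078 without rat 4. *Dock8* gave no adjusted p without rats 2 or 3, by DESeq2 or with matched UMI totals. *Foxo1* and *Ccnjl* were also found in 25.1 and 28.3% of nuclei with *Mog* at 10 or more.

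**Figure D3:**
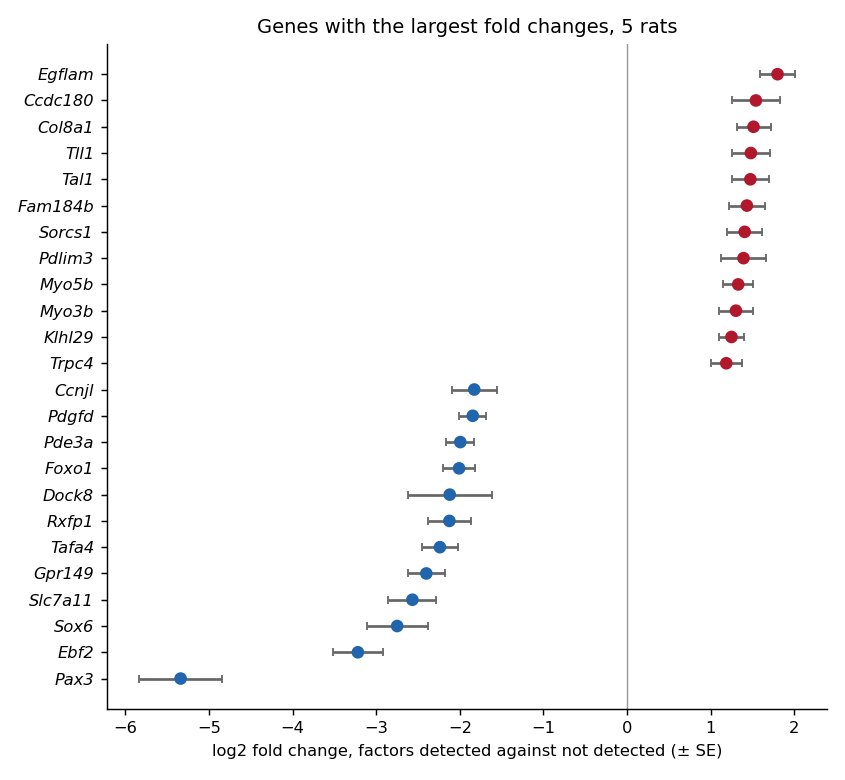
Log2 fold change (x axis, ± SE from edgeR) between GABA-gate nuclei with and without a UMI of *Gata2*, *Gata3* or *Sox14*, for the 12 genes with the largest rise (red) and the largest fall (blue) that passed the test and moved the same way in 5 of 5 rats. The rises lay between 1.19 (*Trpc4*) and 1.80 (*Egflam*) and the falls between -1.83 (*Ccnjl*) and -5.34 (*Pax3*, which was -3.49 without rat 2 and -7.55 without rat 3).

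Promoter sequence was examined because a GATA factor was part of the rule. Of the 95 higher genes, 66 had a RefSeq promoter (GRCr8), and 11 of these (16.7%) held a GATA motif (AGATAA or its variant TGATAA, or else AGATAG or its variant TGATAG, either strand) in the 250 bases before the start. The share was 13.3% of 150 promoters of lower genes, 15.4% of 7091 promoters of genes tested and 26.7% of all 27457 promoters, so the higher genes lay near the background. Of the 12 genes with the largest rise, 11 had an entry and 2, *Tll1* and *Fam184b*, held the motif, while the windows of *Gata2*, *Gata3*, *Sox14*, *Tal1* and *Glp1r* did not. Those 2 windows are shown 5′ to 3′ on the gene's strand, with the motif in capitals as it reads on that strand, at chr16:30275242-30275491 (plus strand, motifs starting 236 and 174 bases before the start) and chr14:69687781-69688030 (plus strand, 191 bases before).
Tll1: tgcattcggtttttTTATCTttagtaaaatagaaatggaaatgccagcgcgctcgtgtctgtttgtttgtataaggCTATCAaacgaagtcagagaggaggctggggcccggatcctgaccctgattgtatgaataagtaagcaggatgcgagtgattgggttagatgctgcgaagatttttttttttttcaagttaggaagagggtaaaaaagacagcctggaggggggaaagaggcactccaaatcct
Fam184b: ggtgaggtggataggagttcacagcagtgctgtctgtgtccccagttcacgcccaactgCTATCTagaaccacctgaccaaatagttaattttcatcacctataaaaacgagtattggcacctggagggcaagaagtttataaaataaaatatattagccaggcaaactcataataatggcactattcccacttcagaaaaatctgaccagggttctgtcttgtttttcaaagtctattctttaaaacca

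Among 66 other regional transcription factors in the files, 34 passed the filter, and 2 were higher and 5 lower, where 1.03% and 2.28% of all genes tested were. *Foxp1*, a forkhead repressor, was at 3.77, 3.20, 4.02, 4.31 and 5.57 UMIs per 10000 in the members of rats 1 to 5 against 2.16, 1.74, 2.44, 2.82 and 1.94, with no overlap between the groups. It rose by 0.95 (SE 0.13, edgeR adjusted p = 0.0012), and *Tox3* rose by 0.71 (SE 0.12), with an adjusted p of 0.0627 after thinning to 1000 UMIs. *Meis1*, a homeobox factor, was at 0.435, 0.674, 0.246, 0.280 and 0.792 in members against 1.74, 1.57, 0.259, 0.644 and 2.59, and fell by 1.38 (SE 0.15). The factor-negative nuclei of rats 3 and 4 lay within the range of the members. After thinning to 1000 UMIs the log2 difference of *Meis1* was -0.72 with an adjusted p of 0.157. *Meis1* was also detected in 42.8% of nuclei with *Mog* at 10 or more. *Pbx3* fell by 0.84 (SE 0.17) with an adjusted p of 0.0631 without rat 4, and *Lmx1a* fell by 1.46 (SE 0.30) with an adjusted p of 0.113 without rat 4 and 0.0553 by DESeq2. *Lmx1a* gave no adjusted p without rats 2 or 5 or with matched UMI totals. The median log2 difference of the list was -0.21 against -0.01 over all genes tested.

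Transmitter handling, neuropeptides and calcium binding were read as 3 lists against the 3.31% of all genes tested that were called. Of 10 genes of GABA and glycine handling, 0 passed by edgeR or DESeq2, a count that does not set the list apart from that background, and 2 were higher and 2 lower at an unadjusted p under 0.05. The transaminase *Abat* had a log2 difference of 0.15 (adjusted p = 0.62). Of 10 neuropeptide genes tested, 1 was higher and 1 lower. *Pnoc*, the prepronociceptin gene, was found in 27.7% of members and rose by 0.73 (SE 0.18), with an adjusted p of 0.562 without rat 2, 0.25 without rat 5, 0.319 by DESeq2 and 0.126 with matched UMI totals. *Tac1*, the precursor of substance P, fell by 1.72 (SE 0.30) on 29 UMIs in members, with an adjusted p of 0.0711 without rat 2. With matched UMI totals *Tac1* gave no adjusted p. Of 7 calcium-binding genes tested, *Calb1* rose by 0.89 (SE 0.21), and its adjusted p was 0.0613, 0.144 and 0.146 without rats 2, 4 and 5, 0.0766 by DESeq2 and 0.224 with matched UMI totals. *Calb2* had a log2 difference of -0.11 (adjusted p = 0.86).

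Receptor genes were called in both directions, beside 1.03% of all genes tested higher and 2.28% lower. The serotonin receptor *Htr2c* was at 9.94, 17.1, 9.27, 19.5 and 18.9 UMIs per 10000 in the members of rats 1 to 5 against 5.78, 7.15, 7.50, 14.9 and 9.49. It was higher in members within each rat, but rat 4's factor-negative nuclei lay above the members of rats 1 and 3, and rat 5's above those of rat 3. The rise was 0.77 (SE 0.14, edgeR adjusted p = 0.0072), with an adjusted p of 0.0656 without rat 2 and 0.0559 without rat 5. The orexin receptor *Hcrtr2* rose by 0.91 (SE 0.17), with 0.0662 and 0.0981 without the same rats, and was higher in 4 of 5 rats. The dopamine receptor *Drd2* fell by 1.08 (SE 0.20), with 0.138 without rat 2. The list of monoamine, acetylcholine and cannabinoid receptors held 3 higher (1 by DESeq2) and 2 lower genes of 13 tested. The other 2 higher genes were *Htr4* (0.75, SE 0.18), with an adjusted p of 0.0652 by DESeq2 and 0.0582 with matched UMI totals, and the adrenergic receptor *Adra1a* (0.51, SE 0.12), with 0.111 and 0.547. Without rat 2 they were at 0.45 and 0.49 with adjusted p values of 0.238 and 0.252, and without rat 4 the adjusted p values were 0.0931 and 0.0799. Of 17 peptide and hormone receptors tested, 2 were higher and 0 lower, with 1 lower at an unadjusted p under 0.05 and 0 by DESeq2. The opioid receptor *Oprm1* was not called, at 0.58 (SE 0.20, adjusted p = 0.16).

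Of 21 glutamate receptor genes tested, 3 were higher and 2 lower, beside 1.03 and 2.28% of all genes tested. *Grik1*, a kainate receptor subunit, was at 0.871, 1.15, 1.19, 3.21 and 1.36 UMIs per 10000 in the members of rats 1 to 5 against 2.06, 5.69, 3.68, 6 and 2.99. The members of rat 4 stood above the factor-negative nuclei of rats 1 and 5, and each rat was lower in its members. *Grik1* fell by 1.45 (SE 0.18, edgeR adjusted p = 0.00047). The metabotropic receptor *Grm5* rose by 0.64 (SE 0.12), with an adjusted p of 0.0711 without rat 2. Beside the same shares, 2 of 16 GABA-A, GABA-B and glycine receptor genes, *Gabrg3* (0.59, SE 0.11) and *Glra3* (0.74, SE 0.15) rose, the latter with an adjusted p of 0.152 without rat 2 and 0.135 without rat 5. With matched UMI totals *Gabrg3* was at 0.81 (adjusted p = 0.0957), a larger value than without matching, and *Glra3* at 0.54 (adjusted p = 0.233). None fell by edgeR or DESeq2, and 0 did at an unadjusted p under 0.05.

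Channel and adhesion genes were called in both directions, beside the same 1.03% and 2.28% of all genes tested. Of 45 channel genes tested, 2 were higher and 3 lower, with *Kcnh1*, a voltage-gated potassium channel, falling by 1.19 (SE 0.15). Of 50 axon guidance and adhesion genes, 5 were higher and 5 lower, with the contactin *Cntn5* rising by 0.87 (SE 0.14). *Tenm3*, a teneurin of synapse formation, fell by 0.97 (SE 0.13), with an adjusted p of 0.157 after thinning to 1000 UMIs.

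Glial markers lay lower in members. The edgeR test called 2 of 8 oligodendrocyte markers (*Mobp*, *Cnp*) and 3 of 6 astrocyte markers (*Gfap*, *Slc4a4*, *Aqp4*) lower, where 2.28% of all genes tested were, and 0 of 6 neuron markers in either direction (0 by DESeq2 and 0 at an unadjusted p under 0.05). At an unadjusted p under 0.05, all 8 oligodendrocyte and all 6 astrocyte markers were lower, with median log2 differences of -0.67 and -0.99 against -0.01 over all genes tested. Of 3 markers of oligodendrocyte precursors tested, *Vcan* was called lower (-1.52, SE 0.28, adjusted p = 0.0071, lower in 4 of 5 rats; 0.109 by DESeq2 and 0.0564 and 0.0592 without rats 2 and 5), and 2 were lower at an unadjusted p under 0.05. *Aqp4* had an adjusted p of 0.14 without rat 2 and 0.106 without rat 5, 0.216 by DESeq2 and 0.348 with matched UMI totals. *Cnp* had 0.0539 without rat 2, 0.0505 without rat 4, 0.123 after thinning and 0.144 with matched UMI totals. The summed oligodendrocyte level was 8.88 to 40.9 UMIs per 10000 in members and 18.2 to 85.7 in factor-negative nuclei of the gate, lower in 4 of 5 rats (exact sign-flip permutation test, two-sided, p = 0.25). The summed astrocyte level was 0.693 to 16.8 against 2.85 to 24.8, lower in 4 of 5 rats (p = 0.125 by the same exact test). In rat 3 both sums were higher in members, at 34.4 against 22.1 and 5.17 against 3.59. The part of glial RNA in the lower genes was not tested. *Pax3* and *Ebf2* were found in 0.387 and 1.65% of nuclei with *Mog* at 10 or more, against 11.9 and 17.9% of factor-negative gate nuclei. The former nuclei were shallower, with a median of 2932 UMIs against 5371. Among the other lower genes, *Meis1*, *Foxo1* and *Ccnjl* were found in larger shares of the *Mog* nuclei, as given above.

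*Glp1r*, the receptor gene the study followed, was found in few members and in fewer of the other GABA nuclei. A *Glp1r* UMI was present in 2, 17, 2, 1 and 4 members of rats 1 to 5, 26 of 452 in all (5.75%, 95% exact binomial interval 3.79 to 8.32%). The factor-negative nuclei of the gate had 0, 6, 0, 0 and 7, which was 13 of 1390 (0.935%, 0.499 to 1.59%). These pooled shares were 3.41 and 0.986% without rat 2, and 6.18 and 0.551% without rat 5. The share over rats was 5.78% ± 4.44 (SD, n = 5) in members and 0.642% ± 1.02 in the others, higher in members in 5 of 5 rats, with a difference of 5.14 percentage points ± 4.60. The exact two-sided sign-flip permutation test gave p = 0.063, the smallest 5 rats allow. Members were deeper, and after thinning to 1000 UMIs the shares were 1.55 and 0.360% of all nuclei, higher in 3 rats and 0 in both groups in the other 2 (exact p = 0.25). Requiring 2 UMIs gave 14 members (3.1%) and 4 factor-negative nuclei (0.288%). In nuclei with *Mog* at 10 or more, at a median of 2932 UMIs, the share was 0.0703%. The members' level was 0.218, 0.189, 0.123, 0.0267 and 0.0905 UMIs per 10000 in rats 1 to 5, on 46 UMIs, and the free RNA held at most 0.0375. Members made up 26 of the 95 nuclei with *Glp1r* in the whole series.

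**Figure D4:**
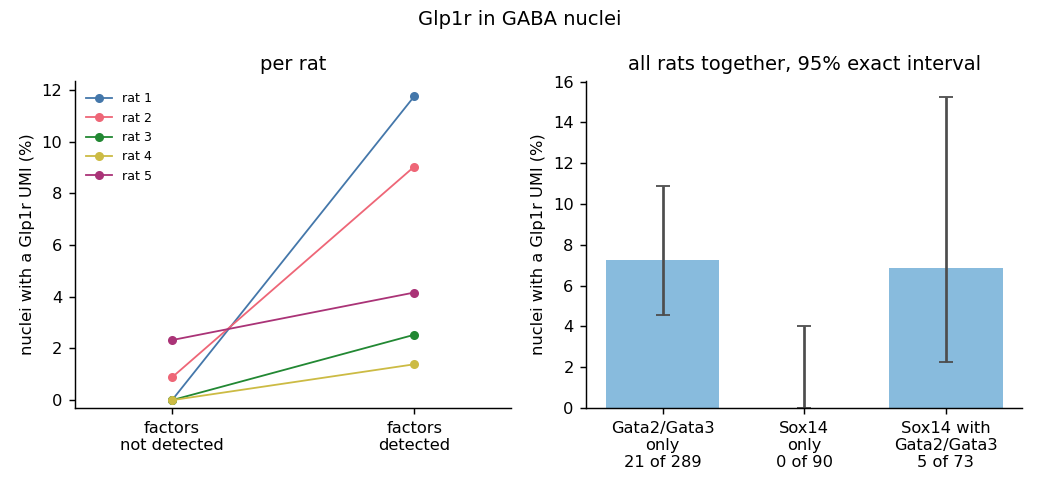
Left, share of nuclei with a *Glp1r* UMI (y axis, percent) in the GABA gate without and with a UMI of the 3 factors, 1 line per rat; each rat was higher with the factors. Right, the same share in members by the factors detected, all rats together, with 95% exact binomial intervals: 21 of 289, 0 of 90 and 5 of 73.

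Of the 26 members with *Glp1r*, 22 had *Gata3*, 8 had *Gata2* and 5 had *Sox14*, and 17 of the 26 were from rat 2. In the 289 members with *Gata2* or *Gata3* and no *Sox14*, 21 had *Glp1r* (7.27%, 4.55 to 10.9%), and in the 73 with *Sox14* and a GATA factor, 5 did (6.85%, 2.26 to 15.3%). Of the 90 with *Sox14* alone, 0 did, for which the 95% exact upper limit is 4.02% and 3 counts are 3.33%; these limit nuclei with a UMI and not nuclei that express the gene. The level per rat was 0.326, 0.247, 0.136, 0.0462 and 0.0892 UMIs per 10000 in the GATA nuclei of rats 1 to 5 and 0 in the *Sox14* nuclei of rats 2 to 5. These shares pool nuclei over rats that held the groups in different proportions, so no difference is read from them. *Glp1r* fell under the filter on low counts in each comparison as run with all its rats. It passed that filter only without rat 4, against the other nuclei of the *Gad* step, and rat 4's members had the lowest level. Leaving out that rat decided whether the gene was tested, so its log2 fold change of 2.68 (SE 0.47) is given without a p-value. With no filter, edgeR gave 2.32 (SE 0.43, adjusted p = 4.4e-06) against those nuclei, 2.36 (SE 0.46, adjusted p = 3.5e-05) against the factor-negative gate nuclei and 2.15 (SE 0.64, adjusted p = 0.023) against the *Pax7*-group nuclei described below, all from the same members. Between nuclei with *Sox14* alone and with GATA factors in rats 2 to 5, the fit with no filter gave a log2 difference of -5.39 (SE 1.47). As the *Sox14* nuclei held 0 UMIs, this value depends on the prior count and is no bound. No p-value is read from it.

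Members also differed among themselves. Nuclei with *Sox14* alone were compared with those with *Gata2* or *Gata3* and no *Sox14* in rats 2 to 5, the rats with at least 5 of each. The former numbered 39, 7, 14 and 30 in these rats and the latter 126, 71, 42 and 37. By edgeR, 24 of 5503 genes tested were higher with *Sox14* (0.436%) and 45 lower (0.818%), 1.25% in all. Leaving out rat 3, which had 7 nuclei with *Sox14* alone, gave 21 and 21. Within each rat the nuclei with *Sox14* alone were the shallower, with medians of 7341, 2391, 9643 and 8143.5 UMIs in rats 2 to 5 against 8303, 2488, 10508 and 9593. By edgeR or DESeq2, 0 of 6 oligodendrocyte markers tested were called, with 0 at an unadjusted p under 0.05. Of 4 neuron markers, *Syt1* was called lower with *Sox14* (-0.93, SE 0.21, adjusted p = 0.016), with 0.155 by DESeq2, 0.156 after thinning and 0.119, 0.327 and 0.0762 without rats 3, 4 and 5.

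*Cacna2d3* and *Oprm1* were among the genes higher with *Sox14*. *Cacna2d3*, an auxiliary calcium channel subunit, was at 21.6, 19, 35.2 and 28.3 UMIs per 10000 in the *Sox14* nuclei of rats 2 to 5 and at 6.25, 4.70, 6.51 and 13 in the GATA nuclei. The groups did not overlap, and the log2 fold change was 1.76 (SE 0.21, edgeR adjusted p = 4.7e-06). *Oprm1*, the mu opioid receptor, was at 1.65, 1.58, 1.63 and 2.01 against 0.588, 0.181, 1.04 and 0.744, again without overlap, and rose by 1.31 (SE 0.26, adjusted p = 0.0041). *Ikzf1*, a zinc-finger transcription factor, was at 0.876, 1.58, 2.51 and 1.10 against 0.199, 1.04, 0.508 and 0.238, with only rat 3's GATA nuclei inside the range of the *Sox14* nuclei, and rose by 1.96 (SE 0.30). The zinc-finger factor *Tshz3* (1.5, SE 0.29), the guidance cue *Ntn1* (1.61, SE 0.29) and the cadherin *Fat3* (1.14, SE 0.21) were higher as well, *Ntn1* in 3 of 4 rats and *Fat3* with an adjusted p of 0.0587 after thinning to 1000 UMIs. *Col25a1* rose by 1.57 (SE 0.30), with an adjusted p of 0.0892 without rat 2.

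*Foxp2*, *Erbb4* and *Adarb2* were among the genes lower with *Sox14*. *Foxp2*, a forkhead factor, was at 0.270, 0.527, 0.0740 and 1.06 UMIs per 10000 in the *Sox14* nuclei of rats 2 to 5 and at 2.30, 0.95, 1.39 and 4.49 in the GATA nuclei, with rat 5's *Sox14* nuclei above rat 3's GATA nuclei. It fell by 2.52 (SE 0.29, edgeR adjusted p = 3.1e-06), with a log2 difference of -3.12 without rat 5. *Erbb4*, the neuregulin receptor, was at 0.607, 1.58, 0.148 and 0.552 against 2.65, 1.49, 1.22 and 4.76, slightly higher with *Sox14* in rat 3 and lower in the other 3 rats. It fell by 2.47 (SE 0.29), and on edgeR's scale (TMM-normalised log2 values with a prior count), by which directions per rat were counted, it was lower in all 4. *Adarb2*, an RNA-editing family member, was at 0.472, 0, 0.592 and 0.552 against 4.45, 2.17, 3.21 and 1.84, without overlap, and fell by 2.58 (SE 0.29). *Dpf3*, a chromatin factor, had 4 UMIs with *Sox14* alone against 155 and a log2 difference of -3.73 (SE 0.56), which was -4.86 without rat 2 and -2.97 without rat 5. The kainate receptor *Grik3* (-2.02, SE 0.33; -2.70 without rat 2), *Megf11* (-2.54, SE 0.37) and *Cpne4* (-2.16, SE 0.28) were lower too. *Satb1* (-1.96) and *Ebf1* (-1.71) were lower with adjusted p values of 0.0919 and 0.0874 without rat 3, and *Ebf1* also had 0.0904 without rat 2. By DESeq2 they had 0.124 and 0.311. *Tal1* had a log2 difference of -0.23 (SE 0.34, adjusted p = 0.99) between these groups. *Erbb4* and *Adarb2* were also found in 72.3 and 37.5% of nuclei with *Mog* at 10 or more.

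**Figure D5:**
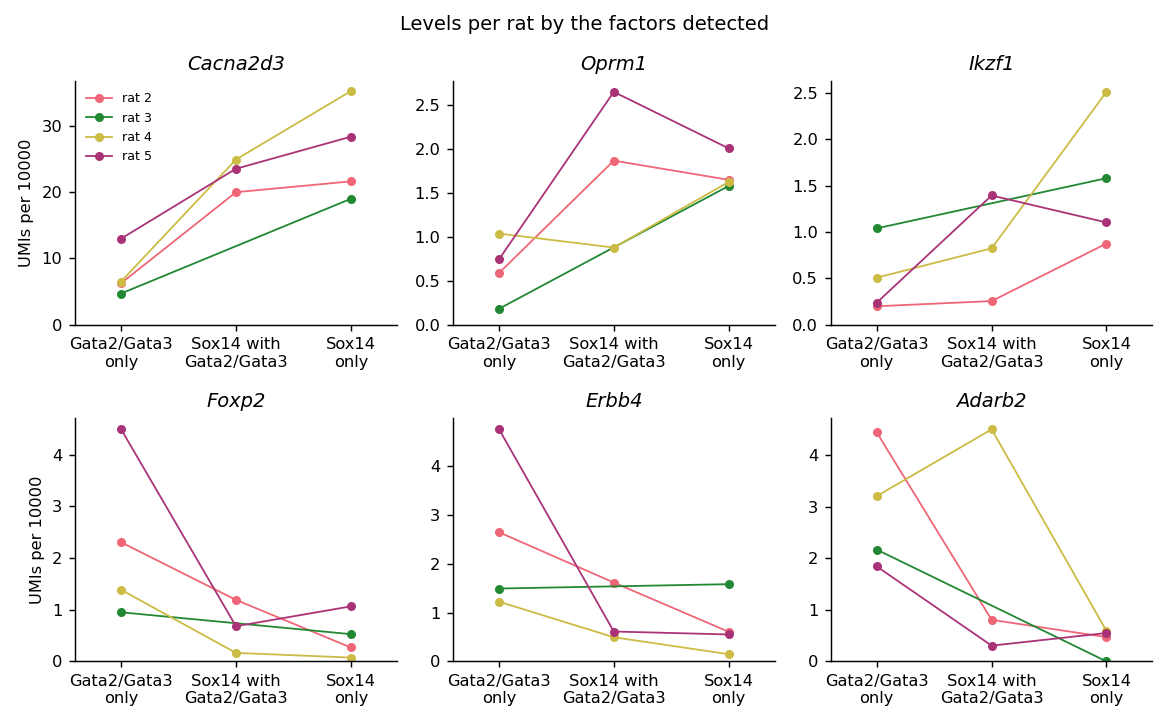
Level of 6 genes (y axis, UMIs per 10000) in members with *Gata2* or *Gata3* only, with *Sox14* and a GATA factor, and with *Sox14* only, 1 line per rat for rats 2 to 5; rat 3 has no middle point, as it had 1 such nucleus. *Cacna2d3* rose to 19 to 35.2 with *Sox14* only and *Adarb2* was at most 0.592 there.

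The 73 members with *Sox14* and a GATA factor were outside that test, and rats 2, 4 and 5 had at least 16 of them. Rat 5 gave 29 of the 73 and 37 of the 289 GATA nuclei. *Cacna2d3* was at 19.97, 24.9 and 23.5 UMIs per 10000 in them in these rats, above the GATA nuclei of the same rats. *Oprm1* was at 1.87, 0.879 and 2.65, above the GATA nuclei in rats 2 and 5 and below them in rat 4. *Foxp2* was at 1.19, 0.165 and 0.680, below the GATA nuclei in each of the 3 rats. *Adarb2* was at 0.807, 4.51 and 0.306, below the GATA nuclei in rats 2 and 5 and above them in rat 4.

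The members were also set against the 293 GABA nuclei outside the gate with 2 or more of *Pax7*, *Meis2*, *Corin* and *Nox4*, and rats 2, 4 and 5 had at least 10 of them. In these rats 222 of 9323 genes tested were higher in the GATA/SOX14 nuclei (2.38%) and 363 lower (3.89%) by edgeR, 6.27% in all, with 132 and 257 without rat 4. Of 6 neuron markers, *Snap25* was called lower in members (-0.77, SE 0.14, adjusted p = 0.0041) and 3 were lower at an unadjusted p under 0.05, with a median log2 difference of -0.41. Their summed level in rats 2, 4 and 5 was 47.4, 46.7 and 43.5 UMIs per 10000 in members against 65.1, 70.5 and 52.0. Of 6 astrocyte markers, *Gfap* was called lower (-0.98, SE 0.19, adjusted p = 0.0063; 0.437 by DESeq2) and 4 were lower at an unadjusted p under 0.05, with a median of -0.72. Their sum was 5.02, 0.693 and 1.31 against 7.22, 3.59 and 2.14. Both sums were lower in members in each of the 3 rats, and their part in the other differences was not tested. Of 8 oligodendrocyte markers 0 were called by edgeR or DESeq2, with 1 lower at an unadjusted p under 0.05. The member counts were those of the comparisons above, so the values are given side by side and not as independent support. *Tal1* was at 0.460, 0.4 and 0.622 UMIs per 10000 in the members of rats 2, 4 and 5 against 0.0386, 0.0328 and 0.0255, without overlap, and differed by 3.68 (SE 0.36, adjusted p = 6.1e-05). *Bcl11b*, a zinc-finger factor, was higher by 3.71 (SE 0.41), *Pax5* by 3.06 (SE 0.50) and *Sulf1*, a heparan sulfatase, by 2.63 (SE 0.39). *Egfr*, the epidermal growth factor receptor, was at 0.158, 0.0666 and 0.102 against 6.53, 4.38 and 2.4, and fell by 5.35 (SE 0.22). *Dach2* (-4.94, SE 0.32), *Ebf2* (-4.73, SE 0.18) and *Sox6* (-4.00, SE 0.48) were lower too. The log2 fold changes of *Pax5* and *Sulf1* ran from 2.03 to 4.43 and from 2.04 to 3.72 with 1 rat left out, *Bcl11b* was 3.06 without rat 2, and *Sox6* was -5.32 without rat 2 and -3.08 without rat 4. The DESeq2 test gave *Pax5* an adjusted p of 0.0725.

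Transmitter and receptor genes were called in both directions against the *Pax7*-group nuclei. The nicotinic receptor subunits *Chrna2* (-4.82, SE 0.48) and *Chrna5* (-3.86, SE 0.35) and the opioid receptors *Oprd1* (-3.23, SE 0.32) and *Oprm1* (-1.38, SE 0.20) were lower in members, with *Chrna2* at -4.15 without rat 2 and -5.72 without rat 5 and *Chrna5* at -6.12 without rat 2. So were *Nos1*, the nitric oxide synthase of neurons (-2.75, SE 0.15), and *Penk*, the enkephalin precursor (-1.38, SE 0.21), the latter with an adjusted p of 0.423 after thinning to 1000 UMIs. The orexin receptor *Hcrtr2* (2.07, SE 0.35), the prolactin receptor *Prlr* (1.52, SE 0.20) and the serotonin receptor *Htr4* (1.69, SE 0.18) were higher, with *Hcrtr2* at 1.43 without rat 2 and 2.75 without rat 5. Of 16 GABA-A, GABA-B and glycine receptor genes tested, 5 were higher and 0 lower (0 lower by DESeq2, 1 at an unadjusted p under 0.05), beside 2.38 and 3.89% of all genes tested. Among the 5 were *Gabrb2* (1.45, SE 0.17), *Gabrg3* (1.27, SE 0.20), *Glra1* (1.72, SE 0.30) and *Glra3* (1.52, SE 0.18). The median of that list was 0.20 against -0.00 over all genes tested. *Calcr*, the calcitonin receptor, was higher by 2.20 (SE 0.46), and the DESeq2 test gave it an adjusted p of 0.0743.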

How the data were processed

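UMI counts per gene and barcode were made by the authors with Cell Ranger and deposited as unfiltered count matrices of 32883 genes. The submitters' processing notes give version 8.0.1 and the matrix headers version 4, and which made the counts is not known; the genome build was not given in the sources used here. The authors' later steps (ambient RNA removal, integration, doublet removal) are not in these counts. Nuclei were selected as described above, counts of members and comparison nuclei were summed per rat, and genes were tested with edgeR 4.0.16 (TMM, filterByExpr, quasi-likelihood test, rat as block, Benjamini-Hochberg over all genes tested) in R 4.3.3. Rats entered with at least 10 nuclei in each group, or 5 within members. Both sums came from the same animal, and their deviations correlated within each rat (0.28 to 0.71). Levels are UMIs per 10000. Gene names are those of the files. The threshold was an adjusted p of 0.05. Named genes were up to 12 per direction by size of fold change among called genes that moved one way in each rat on edgeR's TMM-normalised log2 scale with a prior count, and list genes, at most 6 per list. Of 516 list genes, 497 were in the files. The members and lists were chosen with earlier results of these data known. Doublets were scored with Scrublet (scanpy 1.11.5). Its automatic threshold marked 8 of 22084 nuclei (0.0362%) and no member, so none were removed. The highest 5% of scores held 7.08% of members (29.4% of the 17 in rat 1) and 4.46% of all nuclei. Intervals and floors cover counting error only. The edgeR test was also run on simulated counts, and the outcome is not given here. Alternatives were DESeq2 1.42.0, its size factors, no filter, no block, at least 2000 UMIs, thinning to 1000 UMIs, matched UMI totals, at least 2 factor UMIs, and each rat left out. Promoters were from RefSeq (GRCr8). Some genes of the lists are not reported here.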

Additional observations from a re-analysis of the deposited data

Results flagged for a closer look

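In 5 of 46 sets of values per rat, 1 rat lay far from the others of its group; chance alone flags about 1 in 20. Rat 3 was high in members for *Gata2* (1.07 UMIs per 10000), *Gata3* (5.33) and *Ebf2* (1.48). It was the shallowest library, with the free RNA given above, and the part of free RNA was not tested. *Gata2* and *Gata3* are genes of the rule, which asked for a factor UMI. *Sox14* is also a gene of the rule and was lowest in rat 3. Rat 3's members had a median of 2467 UMIs. The part of the rule and of depth in these levels was not tested, and nothing is read from the flags of *Gata2* and *Gata3*. Rat 4 was high in members for *Grik1* (3.21). Rat 5 was high among members with *Sox14* alone for *Oprm1* (2.01).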

How the results depend on the processing

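Counts of called genes are given as higher and lower in members. Against the other nuclei passing the *Gad* step, the counts of 357 and 672 became 169 and 410 with DESeq2, 210 higher with at least 2000 UMIs, 143 and 439 after thinning to 1000 UMIs, 115 and 315 with matched UMI totals, 196 higher with at least 2 factor UMIs and 1280 lower with no filter, and ran from 61 to 446 and from 209 to 780 with 1 rat left out. Within the gate, 95 and 211 became 104 lower with DESeq2, 169 and 481 with no filter, 51 higher after thinning and 49 and 95 with matched totals, and ran from 36 to 112 and from 85 to 247. Against the *Pax7*-group nuclei, 222 and 363 became 96 and 212 with DESeq2, 379 higher with no filter and 69 and 117 after thinning, and ran from 132 to 239 and from 257 to 390. Between members with *Sox14* and with GATA factors, 24 and 45 became 18 lower with DESeq2, 76 lower with no filter and 2 and 1 after thinning (704 genes tested), and ran from 17 to 23 and from 21 to 51. With no replicate block, which ignores that both sums came from the same rat, the 4 comparisons gave 0 and 0, 0 and 0, 40 and 130, and 0 and 0 calls; at an unadjusted p under 0.05 they gave 470, 192, 843 and 151 genes. Thinning and matching test fewer UMIs; the cause of the other changes was not tested. The share of the gate with the factors was 13.2% with 2 UMIs and 8.21% after thinning, and ran from 22.7 to 28.5% with 1 rat left out. The *Glp1r* difference of 5.14 points was 2.95 with 2 UMIs and 0.911 after thinning, and ran from 3.48 to 6.07 with 1 rat left out. Of the 306 genes called within the gate, 167 (54.6%) were called with DESeq2, and 110, 159 and 126 without rats 2, 4 and 5. After thinning, 155 of them were tested and 107 called. The highest 5% of Scrublet scores, left out as an alternative chosen after seeing the data, gave 249 and 581, 87 and 199, 237 and 394, and 24 and 46; removing the nuclei marked by the automatic threshold was not run, as it marked no member.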
